A study of Drosophila melanogaster with 6 samples.

Results

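The endoplasmic reticulum (ER) chaperone genes are the genes of the folding machinery that a secreted or membrane protein meets when it enters the ER. The 7 genes listed were Hsc70-3, Gp93, Calr, Cnx99A, ERp60, CaBP1 and Pdi. They were chosen by their higher counts under JQ1 in these same libraries, so the difference from DMSO is a description of the chosen genes and carries no test. By FlyBase symbol, 6 of the 7 were found among the 14869 gene identifiers of the count data, and all 6 passed the filter on low counts, which kept 8690 genes. Pdi, a protein disulfide isomerase, had no identifier that could be matched and was not analysed here.

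The libraries were made from S2-DRSC cells, a Drosophila melanogaster line grown in Schneider's medium. JQ1 competes with acetylated lysine for the bromodomains of BET proteins, which flies make from the fs(1)h gene alone. The JQ1 group held 4 libraries of cells given 10 µM JQ1 for 1, 2, 4 or 20 h, and the DMSO group held 2 libraries of cells given the solvent DMSO for 1 or 20 h. Every treatment and time was a single library of a single cell line, so the values at each time have no replicate check, and the 4 JQ1 times share the same DMSO libraries.

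Proteins that enter the ER are held by chaperones until they fold. Hsp70- and Hsp90-type chaperones bind exposed hydrophobic stretches, lectin chaperones bind trimmed N-glycans, and protein disulfide isomerases form and rearrange disulfide bonds. When unfolded proteins accumulate, the sensors Ire1, PEK and Atf6 start the unfolded protein response (UPR), which raises transcription of many of these genes. S2 cells are of blood cell character and secrete matrix proteins.

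Between 24547077 and 29823608 reads were assigned to genes per library. Counts were scaled on the 100 genes most abundant in DMSO, and a count divided by the library's factor is called a scaled count. On that scale the median of all 8690 genes lay below DMSO at every time, with log2 values of -0.54, -0.65, -0.81 and -0.59 after 1, 2, 4 and 20 h. With DESeq2 factors over all genes these medians were 0.01, -0.01, -0.02 and -0.03. The differences of the 6 chaperone genes are therefore also given relative to the median gene. Those of single genes of the other lists are given on the index scale unless another scaling is named. All 11 blood cell markers had at least 100 scaled counts in all 6 libraries. Their summed level was 639481 and 652472 scaled counts in DMSO, 606018, 726892 and 785208 after 1, 2 and 4 h of JQ1, and 1076290 after 20 h, so it was highest in the same library as the chaperone genes. Most markers did not share that rise of the sum. At 20 h 4 of the 11 were above both DMSO libraries, where 19.0% of all genes were. Above 200% of the DMSO mean were 3, where 4.40% of all genes were, and the median log2 was -0.34. The 3 above 200% were the secreted hemolectin gene Hml, the phagocytosis receptor gene NimC1 and the collagen gene Col4a1. Their log2 values were 3.29, 2.27 and 1.28. The sum was carried by Col4a1, vkg and Hml, of which vkg is named after its value was seen. From DMSO 20 h to JQ1 20 h, Col4a1 went from 201783 to 484045 scaled counts and vkg from 144326 to 273386. Hml went from 13842 to 129575, and NimC1 only from 750 to 3736. The scavenger receptor gene Sr-CI was at -1.59, He at -1.07 and crq at -0.76. Of the 11, edgeR called these 3 lower, where 44.3% of all genes were, and 0 higher, where 1.43% were. The 12 markers of neurons, germ line, muscle and fat body that had an identifier summed to 382 to 783 scaled counts, of which the neuronal elav made up 201 to 581. The germ line gene osk had 37.8 and 38.9 scaled counts in DMSO, 29.0, 41.7 and 67.2 after 1, 2 and 4 h of JQ1 and 233.1 after 20 h, more than elav in that library, and 0 to 2 of the 12 had no read in a library. The part of these markers in the chaperone values was not tested, and in a bulk sample fewer cells of a type and less RNA per cell cannot be told apart.

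Hsc70-3 is the fly BiP, the Hsp70 chaperone of the ER lumen and a regulator of the UPR sensors. It lies on the X chromosome and has 7 annotated exons. Its level was 50657 and 49976 scaled counts in the DMSO libraries of 1 and 20 h. Under JQ1 it was 48866, 71166, 117066 and 331603 after 1, 2, 4 and 20 h. The 1 h library was level with DMSO, and each later library was above both DMSO libraries and above the JQ1 library before it. Against the DMSO mean of 50316 ± 481 scaled counts (SD, n = 2), the log2 difference was -0.04, 0.50, 1.22 and 2.72 at the 4 times. At 20 h this was 6.59-fold, with a 95% interval on the log2 scale of 2.71 to 2.73 that covers counting error only. Among all genes of the library, Hsc70-3 ranked 85 and 90 by level in DMSO and 5 after 20 h of JQ1.

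Gp93 on 3R encodes the Hsp90-type chaperone of the ER. Its level was 36555 and 37166 scaled counts in DMSO and 33376, 38510, 47083 and 98176 after 1, 2, 4 and 20 h of JQ1. The 1 h library was below both DMSO libraries and the other 3 were above them. The log2 difference from the DMSO mean was -0.14, 0.06, 0.35 and 1.41. Of its 2841 annotated exonic bases, 101 overlap CG4951 on the opposite strand, and whether the counting used strand is not given in the sources used here.

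**Figure D1:**
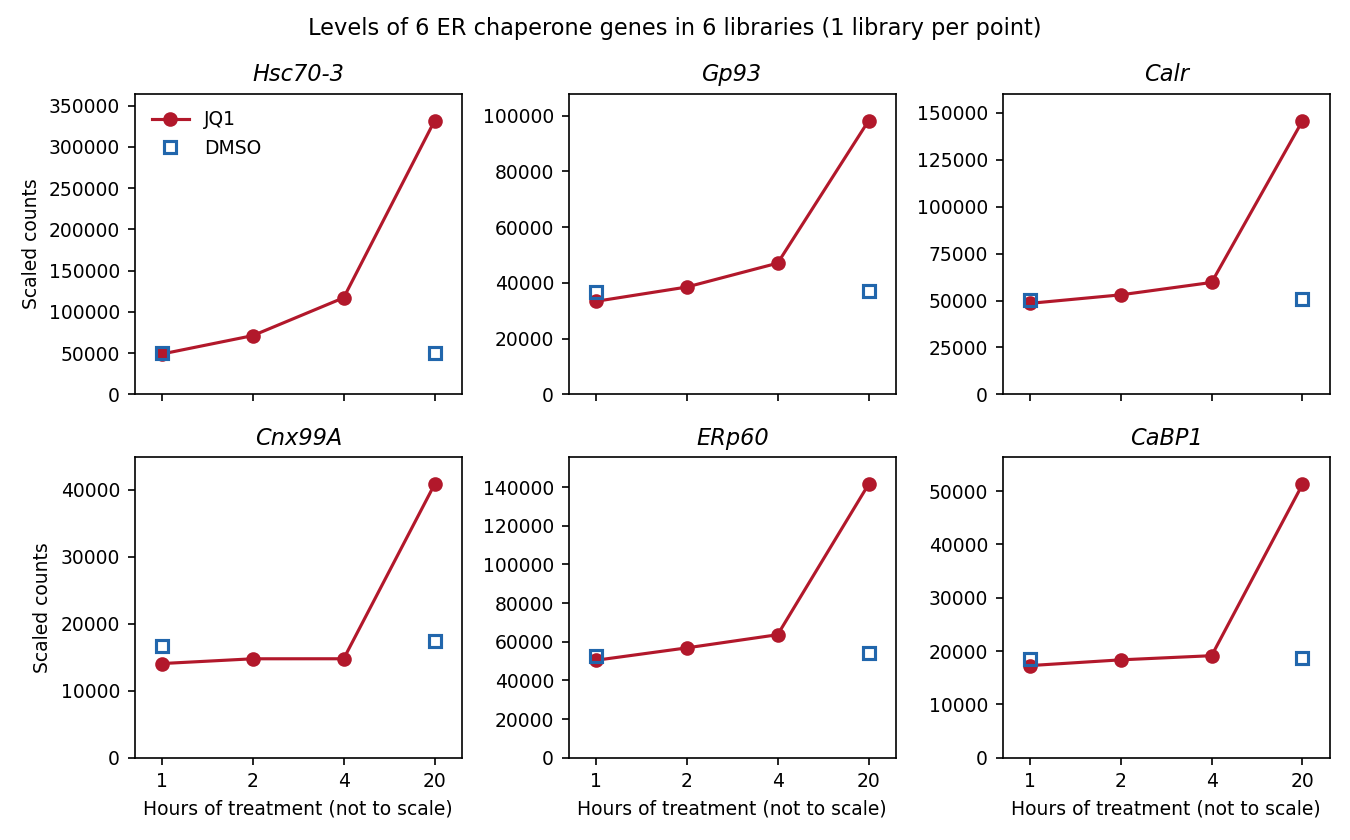
Scaled counts of the 6 genes in each library against hours of treatment, with JQ1 as filled circles joined by a line, DMSO as open squares, and 1 library per point. In every panel the JQ1 20 h point stands above both DMSO points, with Hsc70-3 at 331603 against 50657 and 49976; among the JQ1 2 h and 4 h points only those of Hsc70-3, Gp93, Calr and ERp60 are above both DMSO points at both times.

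Calreticulin and calnexin are the lectin chaperones, the first soluble in the lumen and the second anchored in the membrane. Calr, on 3R, had 50314 and 51036 scaled counts in DMSO and 48490, 53032, 59647 and 145809 after 1, 2, 4 and 20 h of JQ1. Its log2 differences were -0.06, 0.07, 0.24 and 1.52, so the early libraries were close to DMSO and the 20 h library stood 2.88-fold above it.

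Cnx99A, also on 3R and with 13 annotated exons, had the latest onset. Its level was 16703 and 17484 scaled counts in DMSO, and 14061, 14771 and 14775 after 1, 2 and 4 h of JQ1, all 3 below both DMSO libraries. At 20 h it was 40781. The log2 differences were -0.28, -0.21, -0.21 and 1.25. The values at 1 and 2 h changed sign under 3 of 7 other scalings and that at 4 h under 4 of 7, whereas the 20 h value stayed between 1.14 and 1.81.

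ERp60 and CaBP1 are members of the protein disulfide isomerase family. In mammals the counterpart of ERp60 works with calnexin and calreticulin on glycoproteins. ERp60, on 2R, had 52446 and 53982 scaled counts in DMSO and 50445, 56854, 63669 and 141387 after 1, 2, 4 and 20 h of JQ1. Its course was close to that of Calr, with log2 differences of -0.08, 0.10, 0.26 and 1.41. Of its 1807 exonic bases, 36 overlap cuff on the opposite strand.

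CaBP1, on 2L, had 18566 and 18728 scaled counts in DMSO and 17286, 18363, 19142 and 51244 after 1, 2, 4 and 20 h of JQ1. Its log2 differences were -0.11, -0.02, 0.04 and 1.46. The 2 h library was below both DMSO libraries, which changed sign under 4 of 7 other scalings, and the 4 h library was just above them. Between 4 and 20 h its level went up 2.68-fold.

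On the index scale Hsc70-3, Gp93, ERp60 and Calr were first above both DMSO libraries at 2 h, CaBP1 at 4 h and Cnx99A at 20 h. On that scale Hsc70-3 also came first by size. It was past 1.5-fold of the DMSO mean at 4 h and the others only at 20 h. That order depends on the scaling. With DESeq2 factors over all genes Hsc70-3, ERp60, Calr, Gp93 and CaBP1 were all past 1.5-fold at 2 h. Their log2 values there were 1.14, 0.73, 0.70, 0.70 and 0.62. At 1 h 0 of the 6 genes were above both DMSO libraries, where 7.15% of all genes were, and at 2 h 4 were, where 11.4% were. At 4 h 5 of the 6 were above both, against 10.2% of all genes, and at 20 h all 6 were, against 19.0%. More than 200% of the DMSO mean was reached by 0 of 6 at 1 and 2 h, where 0.875% and 2.36% of all genes reached it. At 4 h Hsc70-3 alone did, at a background of 2.00% (2 genes with TMM and 4 with DESeq2 factors over all genes), and at 20 h all 6 did, at a background of 4.40%. Since the genes were chosen for this contrast, nothing is read from these counts against their backgrounds. The sign at 1 h was not fixed, because it turned positive under 3 to 6 of 7 other scalings, depending on the gene.

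**Figure D2:**
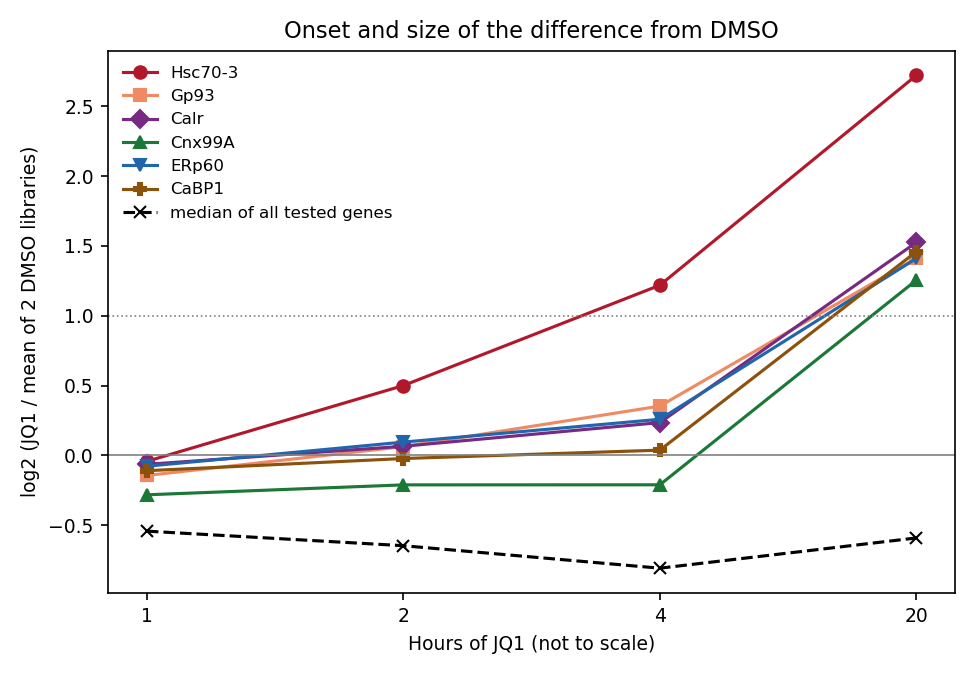
Log2 of the JQ1 scaled count over the mean of the DMSO libraries at 1, 2, 4 and 20 h for the 6 genes, with the median of all tested genes as a dashed line and 200% of DMSO as a dotted line. Hsc70-3 runs above the rest from 2 h on and ends at 2.72; the other 5 end between 1.25 and 1.52; the signs of the 1 h values, of CaBP1 at 2 h and of Cnx99A at 2 and 4 h turn positive under some of the other scalings.

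How far each gene had come by 4 h also differed. The excess of Hsc70-3 over the DMSO mean at 4 h amounted to 23.7% of its excess at 20 h. That share was 16.7% for Gp93, 11.9% for ERp60, 9.43% for Calr and 1.52% for CaBP1, while Cnx99A was still below DMSO. These shares depend on the scaling and ranged over 7 other scalings from 20.7% to 34.6% for Hsc70-3, 16.2% to 41.2% for Gp93 and 1.48% to 25.3% for CaBP1, with Gp93 ahead of Hsc70-3 under total counts, TMM and DESeq2 factors over all genes. On the index scale, from 1 to 2 h Hsc70-3 went up 1.46-fold and the others 1.05- to 1.15-fold. From 2 to 4 h the step of Hsc70-3 was 1.64-fold, that of Gp93 1.22-fold, and that of Cnx99A 1.00-fold. The step from 4 to 20 h was the largest for each gene and was more even, from 2.09-fold for Gp93 and 2.22-fold for ERp60 to 2.76-fold for Cnx99A and 2.83-fold for Hsc70-3. All 6 exceeded 200% in that step, as did 8.91% of all genes on the same scale. The count was 5 with the sum over the index genes or an index of 500 genes and 4 with total counts, TMM or DESeq2 factors over all genes, with Gp93 at 1.74- to 2.44-fold. No library between 4 and 20 h was sequenced, so when in that interval the levels went up is not known. In DMSO, by contrast, the 20 h level was within 5% of the 1 h level for all 6 genes, with ratios of 0.987 for Hsc70-3 to 1.05 for Cnx99A.

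Relative to the median gene, a comparison that does not change with the library factors, the 6 genes stood higher at every time. Their median log2 difference lay 0.45, 0.71, 1.05 and 2.03 above that of all genes after 1, 2, 4 and 20 h. On the index scale the median of the 6 was -0.09, 0.06, 0.25 and 1.44. At 20 h it ranged from 1.32 to 1.99 over the 7 other scalings, and none of the 6 genes changed sign.

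**Figure D3:**
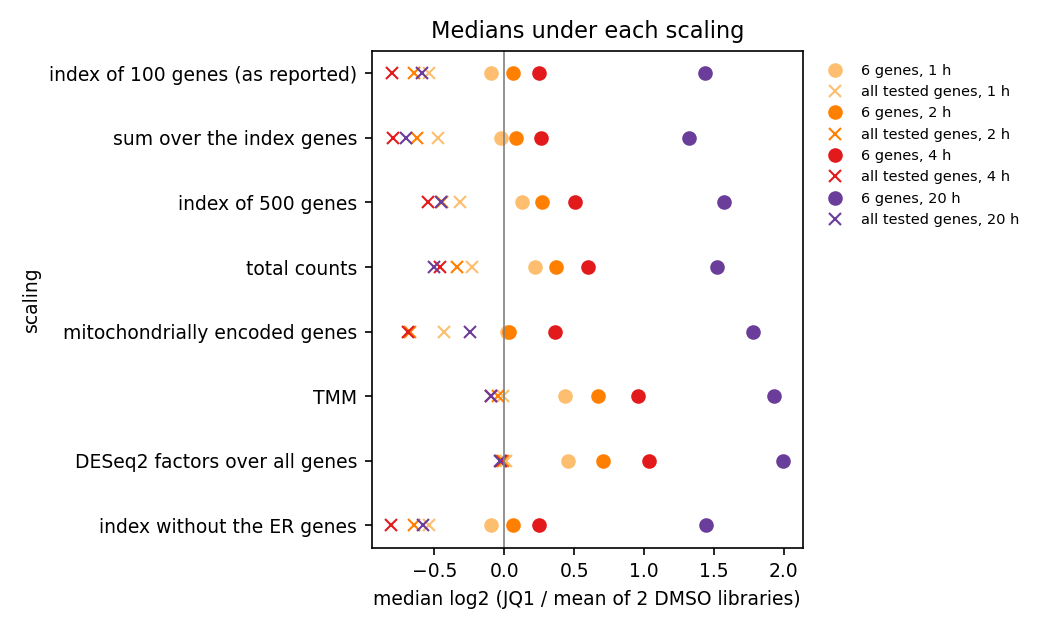
Median log2 difference from DMSO of the 6 genes (circles) and of all tested genes (crosses) under the index scaling and 7 other scalings, with 1 colour for each time. The 20 h median of the 6 genes lies between 1.32 and 1.99 under all of them, whereas the 1 h median is -0.09 on the index scale and 0.46 with DESeq2 factors over all genes.

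Because the genes are abundant, they took a visible part of the library. The 6 genes held 0.728% of the gene reads in the DMSO library of 1 h (95% Wilson interval 0.725% to 0.732%) and 0.717% in that of 20 h. Under JQ1 the share was 0.841%, 0.996%, 1.30% and 2.73% at 1, 2, 4 and 20 h, the last with an interval of 2.73% to 2.74%. These intervals cover counting error only. Hsc70-3 made up 22.5% and 21.9% of the reads of the 6 genes in DMSO, 23.0% after 1 h of JQ1, 28.2% after 2 h, 36.4% after 4 h and 41.0% after 20 h. This within-set share does not depend on the scaling.

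Per kilobase of annotated exon, the order of levels in the DMSO library of 1 h was Calr with 30002 scaled counts, ERp60 with 29024, Hsc70-3 with 14114, Gp93 with 12867, CaBP1 with 10425 and Cnx99A with 5976. The order was the same in the DMSO library of 20 h, where Calr was at 30433 and ERp60 at 29874, so that ERp60 at 20 h came close to Calr at 1 h. After 20 h of JQ1 the order was Hsc70-3 with 92394 scaled counts per kilobase, Calr with 86947, ERp60 with 78244, Gp93 with 34557, CaBP1 with 28772 and Cnx99A with 14591. Hsc70-3 had thus moved from the third place to the first, and the other 5 kept their order among themselves. Division by coding length in place of exon length gave the same order in both libraries.

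When edgeR's quasi-likelihood test compared the 4 JQ1 with the 2 DMSO libraries, 124 of 8690 genes were higher (1.43%) and 3853 lower (44.3%) at a Benjamini-Hochberg adjusted p-value under 0.05. The spread within the JQ1 group in that fit includes the course over time. The median log2 fold change of all genes in the fit was -0.63, to be set beside those of single genes below. The 6 chaperone genes were chosen by this contrast, so no call is given for them, and the test is used only for the other genes of the pathway.

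The other ER folding genes, 19 of which were tested, were a further look at the same compartment. At 20 h of JQ1, 18 of 19 were above both DMSO libraries, where 19.0% of all genes were, and 7 were above 200% of the DMSO mean, where 4.40% were, with a median log2 of 0.86 against -0.59 over all genes. At 4 h 2 of 19 were above both, near the 10.2% of all genes, 3 were below 50%, where 39.5% of all genes were, and the median was -0.31 against -0.81. That median turned positive under 3 of 7 other scalings, while the 20 h median stayed between 0.75 and 1.42. From 4 to 20 h 15 of the 19 exceeded 200%, at the background of 8.91%, and 10 to 16 did under 7 other scalings. edgeR called 0 of 19 in either direction over the 4 JQ1 libraries, with 0 at an unadjusted p-value under 0.05. DESeq2 with its own size factors called 4 higher, namely Fkbp14, GCS2alpha, prtp and CG14715, where it called 1149 of all 8690 genes higher. Without the JQ1 20 h library edgeR called 12 of 19 lower and 0 higher, near the 64.3% of all genes called lower in that fit.

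Among these genes Uggt, the glucosyltransferase that returns misfolded glycoproteins to the lectin chaperones, went furthest above DMSO. It had 7470 and 7831 scaled counts in DMSO, 5296, 5415 and 5064 after 1, 2 and 4 h of JQ1, and 20389 after 20 h. The first 3 JQ1 libraries were below both DMSO libraries and the last was 2.66-fold above their mean. Grp170, an Hsp70-like partner of BiP, had 15792 and 16360 scaled counts in DMSO, 13658, 14729 and 14427 after 1, 2 and 4 h of JQ1, and 34885 after 20 h. Manf, the secreted ER stress protein known in mammals as MANF, had 3970 and 4139 in DMSO, 3616, 3612 and 3572 in the early JQ1 libraries, and 9735 at 20 h. For Uggt, Grp170 and Manf the sign at 1, 2 and 4 h turned positive under 2 to 4 of 7 other scalings, while the 20 h values stayed positive under all of them.

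At 4 h, when Hsc70-3 stood at a log2 of 1.22, the co-chaperones stood lower. Sil1, a nucleotide exchange factor, had 1622 and 1676 scaled counts in DMSO, 919.9, 914.6 and 910.9 after 1, 2 and 4 h, and 3164 after 20 h. P58IPK, a J-domain protein, had 6333 and 5973 in DMSO, 4730, 4789 and 5850 in the early libraries, and 11715 at 20 h. The J-domain protein shv had log2 differences of -0.40, -0.50, -0.31 and 1.34. At 4 h the sign of P58IPK turned positive under 5 of 7 other scalings and that of shv under 3, while Sil1 stayed below 0 under all 7.

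The 3 genes of the list lowest at 4 h were Qsox1, Ero1L and Tmx3. Low levels were not shared by all genes that act on disulfide bonds. ERp60 and CaBP1, of the disulfide isomerase family, were at a log2 of 0.26 and 0.04 at that time. In the same list, ERp44 and prtp were at -0.31 and -0.30. Ero1L, the oxidase that recharges protein disulfide isomerases, had 2006 and 2060 scaled counts in DMSO, 1036, 828.7 and 818.9 after 1, 2 and 4 h of JQ1, and 2313 after 20 h. Qsox1, a sulfhydryl oxidase, had 1839 and 1906 in DMSO, 1193, 771.7 and 705.7 after 1, 2 and 4 h, and 2171 at 20 h. For both, the levels at 2 and 4 h were less than 50% of DMSO on the index scale, with log2 differences at 4 h of at most -0.52 and -0.62 under 7 other scalings, and the 20 h level was slightly above both DMSO libraries. Tmx3, named for a thioredoxin-related membrane protein, had log2 differences of -1.05, -1.02, -1.09 and 0.34. These were the 3 of 19 below 50% at 4 h; at 1 and 2 h 1 and 3 of the 19 were, against 19.4% and 31.1% of all genes, and at 20 h 0 were, against 31.4%. GCS1, glucosidase I, which removes the outermost glucose of the N-glycan, was the one gene not above DMSO at 20 h, with a log2 of -0.15 that turned positive under 3 of 7 other scalings. Both subunits of glucosidase II were above DMSO at 20 h, GCS2alpha with a log2 of 1.17 and GCS2beta with 0.82.

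**Figure D4:**
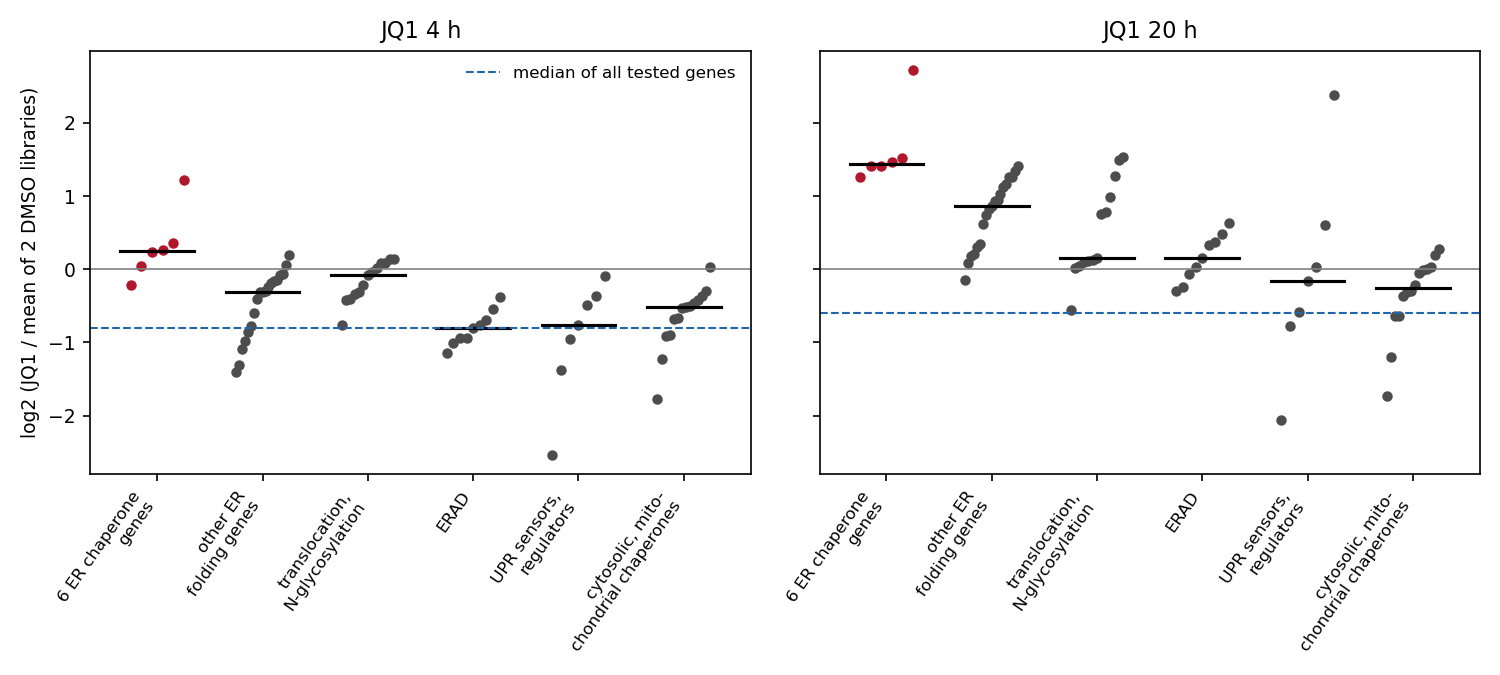
Log2 of JQ1 over the mean of the DMSO libraries at 4 h and at 20 h, with 1 point per tested gene, sorted within each list, a bar at the list's median and the median of all tested genes as a dashed line. The other ER folding genes have a median of -0.31 at 4 h, which turns positive under 3 of 7 other scalings, and of 0.86 at 20 h; the cytosolic and mitochondrial chaperones stay at -0.52 and -0.25, both of which turn positive under some other scalings.

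The genes of ER entry and N-glycosylation numbered 13 tested. All were above the median gene at each of the 4 times, and their median log2 was -0.08 at 4 h, positive under 5 of 7 other scalings, and 0.15 at 20 h. At 20 h 3 of 13 were above 200% of DMSO, where 4.40% of all genes were, and all 3 encode subunits of the oligosaccharyltransferase, which transfers the glycan to the protein. OstDelta had 16501 and 17515 scaled counts in DMSO, 15128, 16397 and 17245 after 1, 2 and 4 h of JQ1, and 49394 at 20 h. Ost48 had a log2 of 1.49 at 20 h and the catalytic subunit Stt3B 1.27, whereas Stt3A, also a catalytic subunit, had 0.15. TRAM, a membrane protein at the translocon, was the 1 of 13 genes that passed the edgeR test, at a log2 fold change of -0.53 (SE 0.16, adjusted p = 0.033), where 44.3% of all genes were called lower, and 0 passed as higher. The call of TRAM was lost without either DMSO library, without the JQ1 2 h or 4 h library, under 5 of 7 other scalings, and with treatment duration as a block. DESeq2 with its own size factors called 8 of the 13 higher and 0 lower, where it called 1149 and 1057 of all 8690 genes.

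The regulators of the unfolded protein response were tested as 7 genes, of which 3 were lower and 0 higher in JQ1 by edgeR, near the 44.3% of all genes called lower. DESeq2 with its own size factors called 1 higher and 1 lower, where it called 1149 and 1057 of all 8690 genes. The sensor Ire1 had no identifier in the count data and was not analysed. By edgeR the sensor PEK (log2 -0.09, SE 0.32, adjusted p = 0.83) and crc (-0.06, SE 0.08, adjusted p = 0.56) were not called. PEK was below both DMSO libraries after 1, 2 and 4 h of JQ1 and 1.52-fold above their mean after 20 h. Xbp1, the transcription factor whose mRNA Ire1 splices, had 25557 and 26249 scaled counts in DMSO, 17619, 15308, 13377 and 17232 after 1, 2, 4 and 20 h of JQ1, all below both DMSO libraries. Its edgeR log2 fold change was -0.71 (SE 0.13, adjusted p = 0.0087), where the median of all genes was -0.63. At 20 h its log2 difference from DMSO was -0.59, the same as that of the median gene. Reads per gene do not separate the spliced from the unspliced form. Atf6, the membrane-tethered sensor, was at -1.02 (SE 0.18, adjusted p = 0.0081), and Gcn2, the kinase that senses uncharged tRNA, at -1.77 (SE 0.35, adjusted p = 0.010). The count of 3 became 0 with TMM, with DESeq2 factors over all genes and with treatment duration as a block. Over all genes 565, 482 and 0 were called lower in those fits. The count became 6 without the JQ1 20 h library, where 64.3% of all genes were called lower. Xbp1, Atf6 and Gcn2 lay below the DMSO libraries in 4 of 4 JQ1 libraries. On the same index scale the median gene was also below the DMSO mean at each time.

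Thor, the 4E-BP that restrains translation and a known target of the PEK branch, was the gene of that list furthest above DMSO. It had 4562 and 4768 scaled counts in DMSO, 3724, 3307 and 3318 after 1, 2 and 4 h of JQ1, and 24264 after 20 h. As for Uggt, Grp170 and Manf, the 1, 2 and 4 h levels were below both DMSO libraries and the 20 h level was above them, with early signs that turned positive under 2 of 7 other scalings. Thor was not called by edgeR (log2 0.89, SE 0.93, adjusted p = 0.44).

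ER-associated degradation genes, which extract misfolded proteins for the proteasome, were 9 tested genes with a median log2 of -0.80 at 4 h and 0.15 at 20 h. The median of all genes was -0.81 at 4 h and -0.59 at 20 h. Above it were 5 of the 9 genes at 4 h and 9 of 9 at 20 h. None was above 200% of DMSO at 1, 2, 4 or 20 h, where 0.875%, 2.36%, 2.00% and 4.40% of all genes were. Herp had 1794 and 1728 scaled counts in DMSO, 977.9, 900.1 and 1013 after 1, 2 and 4 h of JQ1, and 1800 at 20 h, which was level with DMSO. The largest negative fold changes were those of Ufd1 (-0.64, SE 0.25) and Npl4 (-0.64, SE 0.29), partners of the p97 segregase, neither of which passed the test (adjusted p = 0.072 and 0.11). The 1 of 9 called lower, against 44.3% of all genes, was Edem1, which is named after its value was seen. It had a log2 fold change of -0.51 (SE 0.17, adjusted p = 0.041), and the call was lost in most alternatives.

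Of 14 tested chaperones of the cytosol and mitochondria, 8 were lower and 0 higher by edgeR, where 44.3% of all genes were lower. Their median edgeR log2 fold change was -0.37, against -0.63 over all genes. Above the median gene were 11, 12, 10 and 10 of the 14 after 1, 2, 4 and 20 h of JQ1. At 20 h 0 of 14 were above 200% of DMSO, where 4.40% of all genes were, and 2 were below 50%, where 31.4% were. DESeq2 with its own size factors called 3 higher and 1 lower, where it called 1149 and 1057 of all 8690 genes. Hsp68, a stress-inducible cytosolic Hsp70, had 902.6 and 873.7 scaled counts in DMSO and 367.3, 345.4, 259.5 and 267.1 after 1, 2, 4 and 20 h of JQ1, for a log2 fold change of -1.52 (SE 0.21, adjusted p = 0.0057). Trap1, the mitochondrial Hsp90, was at -0.95 (SE 0.21, adjusted p = 0.013) and CCT5, a subunit of the cytosolic chaperonin, at -0.62 (SE 0.15, adjusted p = 0.018). Hsp60A, the mitochondrial chaperonin, was at 0.01 (SE 0.12) and was not called. The count of 8 became 13 without the JQ1 20 h library, where 5586 of all 8690 genes were called lower. It was 2 without the JQ1 2 h library, 5 without that of 4 h and 1 with TMM. Over all genes 2202, 2658 and 565 were called lower in those fits.

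Across the 6 libraries, 7333 genes averaging 50 or more scaled counts were ranked by the Pearson correlation of their log2 levels with the mean course of the 6 genes. The closest were CG5888 (r = 0.9995), vsg (0.9995), Stt3B (0.9990), Mvb12 (0.9989) and CG6310 (0.9987), with log2 differences from DMSO at 20 h of 2.12, 1.02, 1.27, 0.50 and 1.51. Among the 6 themselves, r with their mean was 0.9993 for Calr, 0.9992 for ERp60, 0.9953 for Gp93, 0.9916 for CaBP1, 0.9600 for Cnx99A and 0.9576 for Hsc70-3. The genes closest to Hsc70-3 alone were Rel, the NF-κB factor of the Imd pathway (r = 0.9992), scaf (0.9991) and FBgn0039208 (0.9981). Rel had 6929 and 6600 scaled counts in DMSO and 6679, 7871, 10131 and 16415 after 1, 2, 4 and 20 h of JQ1, and scaf had 6038 and 5974 in DMSO and 6390, 9170, 16957 and 61333. All these correlations rest on 6 libraries that share scaling and controls, and the JQ1 20 h library lies far from the rest, so they only describe likeness of course.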

How the data were processed

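RNA-seq of 6 S2-DRSC libraries was analysed. The data were the deposited raw counts of reads per gene, which the authors made by aligning with TopHat to the fly genome (BDGP5) and counting uniquely mapping reads with HTSeq. Versions and strand use are not given in the sources used here. Single-end reads had 50 cycles, from 4 µg of total RNA after polyA enrichment. The 5 lines naming no gene (21.9% to 27.3% of records) were left out.

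Symbols came by identifier from the Ensembl annotation of release 6, for 13524 of 14869 identifiers, and no coordinates are given because the counts rest on release 5. Factors were the median ratio over the 100 genes most abundant in DMSO, which include 3 of the 6 chaperone genes. Genes averaging 10 or more scaled counts were tested with edgeR 4.0.16 in R 4.3.3 (quasi-likelihood, two-sided, Benjamini-Hochberg), with 4 JQ1 against 2 DMSO libraries and no covariate. Differences at single times are log2 of (JQ1 + 1) over (mean DMSO + 1) and have no test. The 95% intervals are exact for log2 differences and Wilson for shares. The fit was tested on simulated data. Alternatives were 7 other scalings, filters, a pseudocount of 5, each library left out, treatment duration as a block, and DESeq2 1.42.0.

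The genes and lists were chosen with earlier results of these data known. Named were the 6 genes, any other ER folding gene, up to 3 genes at either end of the edgeR log2 fold change in each other list, and the genes most alike in course. Nothing states that libraries of a group came from separate cultures, so p-values measure the spread between these libraries, which may be technical.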

Additional observations from a re-analysis of the deposited data

Results flagged for a closer look

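In 25 of the 53 genes examined the JQ1 20 h library stood far above the other 3 JQ1 libraries, by the gap to the nearest one divided by the range of the 4. The ratio was past Dixon's 95% critical value for 4 libraries, which chance passes in about 1 in 20 groups. Of all tested genes, 8.93% were past it with JQ1 20 h highest. The 4 libraries differ in treatment duration and are not replicates, so that rate does not apply to them. A distant 20 h library is part of the course over time. The chaperone genes were also chosen for higher counts under JQ1, so their ratios are a description and carry no test. Apart from the other ER folding genes, the pathway lists entered only with genes at either end of the edgeR log2 fold change. The share of 25 in 53 is therefore not read against that of all genes. Of the chaperone genes, Cnx99A had a ratio of 0.973, CaBP1 0.945, Calr 0.885 and ERp60 0.855, while Hsc70-3 and Gp93, the genes with the most early difference, stayed under that value. Of the other ER folding genes, the ratio was 0.996 for Sil1, 0.993 for Manf, 0.977 for Uggt, 0.973 for Tmx3, 0.9495 for Grp170, 0.949 for ERp44, 0.946 for shv, 0.943 for CG14715, 0.942 for GCS2beta, 0.932 for CG11999, 0.892 for GCS2alpha, 0.855 for Ero1L, 0.840 for P58IPK and 0.839 for Fkbp14. In the other lists it was 0.980 for Thor, 0.938 for OstDelta, 0.928 for Stt3A, 0.921 for Ost48, 0.879 for Stt3B and 0.874 for Herp, and among the blood cell markers 0.927 for NimC1.

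Each chaperone gene was below the DMSO library of 1 h after 1 h of JQ1 and above that of 20 h after 20 h. The 20 h log2 difference exceeded that at 1 h by 2.78 for Hsc70-3, 1.57 for Calr, 1.56 for CaBP1, 1.53 for Gp93, 1.47 for Cnx99A and 1.45 for ERp60. With 1 library per treatment and time these differences between the durations were not tested, and the sign at 1 h depends on the scaling.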

How the results depend on the processing

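The median log2 difference of the 6 genes at 20 h, 1.44 as reported, was 1.32 with the sum over the index genes, 1.57 with an index of 500 genes, 1.52 with total counts, 1.78 with the mitochondrially encoded genes, 1.93 with TMM and 1.99 with DESeq2 factors over all genes. With TMM 1 of the 6 was above 200% of DMSO at 2 h and 2 at 4 h, and with DESeq2 factors 1 and 4. Of the genes called over all genes, 96.9% were lower, compared with 56.4% under TMM (436 higher, 565 lower) and 51.2% under DESeq2 factors (460 higher, 482 lower). Lower calls numbered 2248 with an index of 500 genes, 1895 with total counts and 1570 with mitochondrially encoded genes. DESeq2's Wald test with its own factors called 1149 higher and 1057 lower, among them 4 other ER folding genes as higher; TMM called 3 and DESeq2 factors 2 of the latter. Leaving out 1 library gave 0 to 214 higher and 0 to 5586 lower, with 0 of both by edgeR without either DMSO library (3212 and 2877 genes at an unadjusted p-value under 0.05); 0 to 12 other ER folding genes were then lower, the highest count without the JQ1 20 h library. Treatment duration as a block gave 0 higher and 0 lower by edgeR (2642 at an unadjusted p-value under 0.05). An index without the ER genes, added after seeing the data, gave a 20 h median of 1.44. No paired analysis was possible because of missing replicate numbers in the labels, other than by duration, which matches a JQ1 with a DMSO library at 1 and 20 h and is the block given before. Coding length from a RefSeq protein was not run, and the longest annotated coding length, added after seeing the data, took its place. The cause of these differences was not tested.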
